A study of Mus musculus with 8 samples.

Results

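The elastic fibre and microfibril genes of the cochlea were followed in mice that lack the microRNA miR-29a. The group holds 10 genes, chosen by gene symbol: Eln, Fbn1, Fbn2, Fbln1, Fbln2, Fbln5, Efemp2, Mfap2, Mfap5 and Emilin1. All 10 were found among the 21895 genes of the expression table, and all 10 were among the 14990 genes expressed highly enough to be tested. Expression was measured by RNA sequencing of the whole cochlea in 4 wild-type (WT) libraries, WT1 to WT4, and 4 libraries of homozygous miR-29a-/- mice (miR-29a KO), KO1 to KO4. Both genotypes were on the C57BL/6 background, and the mice of the study were bred from heterozygous parents and were of both sexes. The deletion was carried in the germ line and was not directed at a cell type. Ages are recorded as 21 days in the series record and as 2 months in the methods. Nothing in the labels says that each library came from a separate animal, so the p-values measure the spread between these libraries, which may be technical. The level of miR-29a itself was not analysed here, and the genotype of each library therefore rests on its label.

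Elastic fibres give recoil to tissues that are stretched. Each has a core of elastin, secreted as the soluble monomer tropoelastin and cross-linked by lysyl oxidases, and a sheath of microfibrils built from fibrillins. Fibulins and microfibril-associated glycoproteins sit on the surface or at the interface of both parts and guide assembly, and microfibrils also hold latent growth factors of the TGF-β and BMP families. MicroRNAs of the miR-29 family lower the amount of many matrix mRNAs, and elastin and fibrillin-1 are among the genes known as their targets in other tissues.

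The seed of a microRNA, its bases 2 to 8, pairs with the mRNA, and largely decides which 3′-UTRs can be recognised. The mature sequences of the family are shown because miR-29a was deleted while miR-29b and miR-29c carry the same seed, AGCACCA, which is given in capitals. They were taken from RefSeq on GRCm38.p6, where mmu-miR-29a-3p lies on the minus strand at chr6:31062673-31062694.
mmu-miR-29a-3p: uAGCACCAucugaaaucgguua
mmu-miR-29b-3p: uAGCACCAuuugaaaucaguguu
mmu-miR-29c-3p: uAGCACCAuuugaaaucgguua

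The reverse complement of this seed, TGGTGCT, was looked for on the sense strand of the longest annotated 3′-UTR of each gene (GENCODE M21, GRCm38). Of the 14832 tested genes with an annotated 3′-UTR, 2294 or 15.5% held it at least once. Of the 10 elastic fibre genes, 5 held it: Eln had 3 copies, Fbn1 and Mfap5 had 2 each, and Mfap2 and Fbn2 had 1 each. The 3′-UTRs of Fbln1, Fbln2, Fbln5, Efemp2 and Emilin1 held none, although that of Fbln5, at 4177 bases, was the longest of the 10. A match is a description of the sequence and does not show that the microRNA binds there.

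The sites of Eln, Fbn1, Mfap5 and Mfap2 are shown 5′ to 3′ along the mRNA, with the bases that pair with the seed in capitals and positions counted from the first base of the 3′-UTR. They are given because Eln, with the most copies, also had the largest difference between the genotypes, while Mfap2, with 1 copy, overlapped between them. In Eln, on the minus strand, the matches lie at bases 38 to 44 (chr5:134703737-134703743), 285 to 291 (chr5:134703490-134703496) and 298 to 304 (chr5:134703477-134703483), so that the last 2 lie close together. In Fbn1, on the minus strand, they lie at bases 406 to 412 (chr2:125301174-125301180) and 656 to 662 (chr2:125300924-125300930). In Mfap5, on the plus strand, they lie at bases 144 to 150 (chr6:122528575-122528581) and 367 to 373 (chr6:122528798-122528804). The match of Mfap2, on the plus strand, lies at bases 66 to 72 (chr4:141015646-141015652). In the first and second sites of Eln, the first of Fbn1 and the second of Mfap5, an A follows the match.
Eln site 1: gacctcatcaacgtTGGTGCTa
Eln site 2: tctccaagggaaatTGGTGCTa
Eln site 3: ttggtgctacatgtTGGTGCTt
Fbn1 site 1: ttctgttgtctgttTGGTGCTa
Fbn1 site 2: gtgagggtttgtaaTGGTGCTt
Mfap5 site 1: actctaattttcacTGGTGCTg
Mfap5 site 2: atattttttttaaaTGGTGCTa
Mfap2 site 1: ggccctgcctgaccTGGTGCTt

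Levels are given as FPKM, the sequenced fragments of a gene divided by its transcript length and by the mapped fragments of the library, which allow genes of different length to be compared. The depth, estimated from the steps between low values, was about 21500000 to 26400000 mapped fragments per library. The tissue label was checked with 13 genes of cochlear cells, none of which was at 0 in any library. Their summed FPKM was 1602 to 2489 in WT and 1725 to 2183 in KO, mostly from Coch (1231 to 1927 and 1433 to 1841 FPKM). Most of the other cochlear genes were lowest in WT1 and highest in WT3, such as Otog (6.56 and 24.2 FPKM). Of the 13 genes, only Tectb had an unadjusted limma p under 0.05. It was lower in KO (log2 difference -1.19), with overlapping groups. Both WT1 and WT3 stood apart. In WT1 the 10 highest genes held 17.6% of the total FPKM, against 8.50% to 10.9% in the other libraries. The summed FPKM of 6 neutrophil and marrow markers was 9186 in WT1 and 51.2 in WT3, against 635 to 4853 in the other libraries. Markers of bone cells were likewise highest in WT1 (379) and lowest in WT3 (37.6). Skeletal muscle markers summed to 481 in KO3 against 49.2 to 202 in the other libraries. Pvalb, at 46.7 to 202 FPKM in WT and 82.4 to 209 FPKM in KO, made up most of this sum outside KO3. The other muscle markers were all highest in KO3 and next highest in KO4. Among them, Acta1 was at 141.5 FPKM in KO3 and 10.2 FPKM in KO4, against 0.151 to 2.18 FPKM in the other libraries. Summed markers of adipocytes (0.0636 to 14.9 in WT and 2.54 to 25.9 in KO) and chondrocytes (39.1 to 82.4 and 80.4 to 117) overlapped between the groups. Their part in the results was not tested.

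Of the 10 genes, 3 were higher in miR-29a KO cochleae and none was lower, with a gene called different when its unadjusted two-sided limma p-value was under 0.05. These were Eln, Fbn1 and Emilin1, which encode elastin, fibrillin-1 and a glycoprotein of the elastin and microfibril interface. By the same rule, 4.61% of all 14990 tested genes were called higher and 0.507% lower, 5.12% in all. The excess of higher calls depended on the scaling, as 401 genes were called higher and 362 lower when libraries were rescaled by median ratios. The KO libraries were all above the WT libraries for 2 of the 10 genes, Eln and Fbn1, against 3.02% of all tested genes. For none of the 10 were they all below, against 0.487% of all tested genes. The 10 genes were chosen with earlier results of these data known. Their comparison with all tested genes therefore describes the group and does not test for an excess. After Benjamini-Hochberg adjustment over all genes, limma called 0 of the 14990 genes (0%), whereas 767 genes had an unadjusted p under 0.05. The differences of the elastic fibre genes therefore rest on unadjusted p-values, and their smallest adjusted p was 0.922. Without WT1 and WT3, 2 of the 10 genes were called, Eln and Fbn1, while 2430 of 15055 tested genes were called in that fit.

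The centre of the group lay above that of all genes. The median difference between KO and WT, as log2 of FPKM plus 0.1, was 0.44 over the 10 genes and 0.10 over all tested genes. Of the 10 genes 7 were above 0 by their difference, while 9962 of all 14990 tested genes, or 66.5%, were above 0 too. With the same rescaling, the median over all genes moved to 0.0046 and that of the 10 genes to 0.34, and Eln, Fbn1 and Emilin1 were again the genes called.

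**Figure D1:**
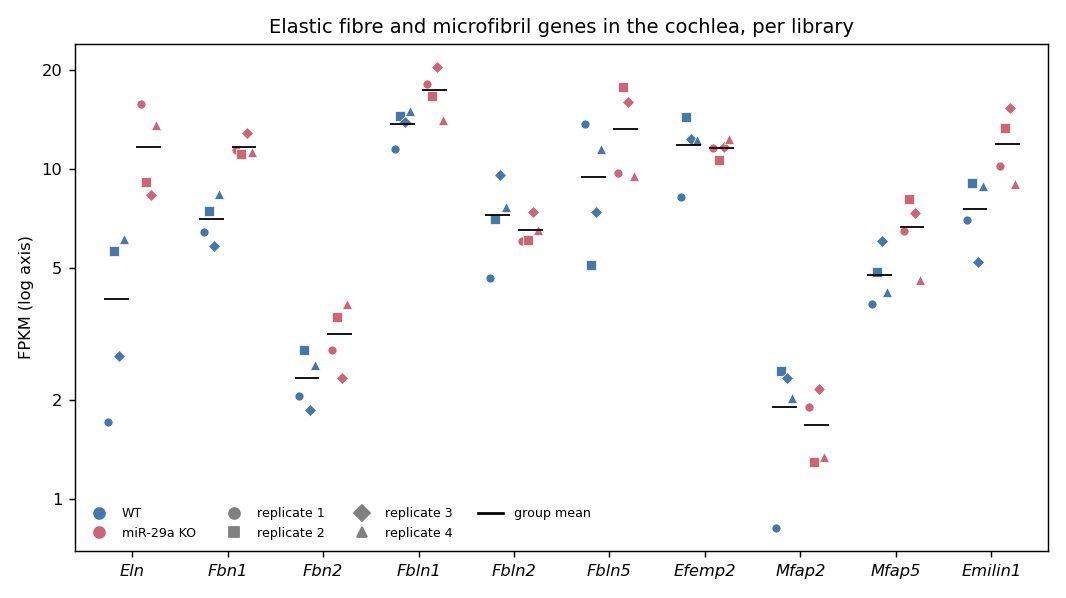
FPKM of each of the 10 elastic fibre and microfibril genes in the 4 WT and 4 KO libraries, with 1 point per library, a different symbol for each library number and a bar at the group mean, on a log axis. The KO points of Eln (8.35 to 15.7) and Fbn1 (11.1 to 12.9) lie above all WT points of these genes, and the points of the other 8 genes overlap.

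Elastin, the core of the fibre, showed the largest difference of the 10 genes. Eln (ENSMUSG00000029675, chr5:134702593-134747323) was at 1.72, 5.63, 2.72 and 6.12 FPKM in WT1 to WT4 and at 15.7, 9.14, 8.35 and 13.6 FPKM in KO1 to KO4. The lowest KO library was above the highest WT library, and the low WT values were those of WT1 and WT3. The mean rose from 4.05 ± 2.16 (SD, n = 4) to 11.7 ± 3.54 FPKM (SD, n = 4), a 2.89-fold difference. The log2 difference was 1.63 (SE 0.42, 95% interval 0.69 to 2.58), and an exact two-sided permutation test over the libraries gave p = 0.0286, the smallest that 4 against 4 allows. Without WT1 the difference was 1.29, and without both WT1 and WT3 it was 0.93, each still called by limma, so the size depended on these libraries and the call did not. In bulk tissue, a change in the number of elastin-producing cells and a change in the RNA of each cell cannot be told apart.

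Smooth muscle cells are a main source of elastin in vessel walls, so their markers were read beside it. The summed FPKM of 8 smooth muscle and pericyte markers was 104 to 111 in WT and 154, 100.1, 134 and 125 in KO1 to KO4. The genes behind the sum did not run together. Myh11, Acta2, Tagln and Cnn1 were each lowest in WT3. Rgs5 was highest there, at 55.3 FPKM against 31.3 to 39.8 FPKM in the other WT libraries. Acta2 was at 28.4, 20.2, 11.9 and 18.8 FPKM in WT1 to WT4 and at 44.1, 15.0, 28.5 and 27.2 FPKM in KO1 to KO4. The highest sum and the highest Eln value were both in KO1, where Myh11, the smooth muscle myosin, was at 16.7 FPKM against 4.41 to 9.21 in the other libraries. In KO2, where the marker sum was the lowest of all libraries, Eln was at 9.14 FPKM. Of these 8 markers only Des, the muscle intermediate filament gene, was called, with a log2 difference of 1.36. Des was at 15.8 FPKM in KO3, the library with the highest skeletal muscle markers, against 3.36 to 4.72 FPKM in the other KO libraries. Without KO3 its difference was 0.85, and without WT1 (1.18), WT3 (1.27) or both (0.95) it was not called. The part of these cells in the difference of Eln was not tested.

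Fibrillin-1 is the main fibrillin of microfibrils after birth, and fibrillin-2 is made mostly before birth. Fbn1 (ENSMUSG00000027204, chr2:125300594-125507993) was at 6.45, 7.48, 5.84 and 8.41 FPKM in WT1 to WT4 and at 11.4, 11.1, 12.9 and 11.2 FPKM in KO1 to KO4. The KO libraries were all above the WT libraries and lay close to one another. The mean rose 1.65-fold, from 7.04 ± 1.13 to 11.7 ± 0.826 FPKM (SD, n = 4 each). The log2 difference was 0.73 (SE 0.15, 95% interval 0.38 to 1.07), and the exact two-sided permutation p was again the smallest possible, 0.0286. Without WT1 and WT3 the difference was 0.55 and still called. The spread between libraries differed between the 2 genes: the coefficient of variation was 16.1% in WT and 7.09% in KO for Fbn1, and 53.3% and 30.2% for Eln.

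Fbn2 (ENSMUSG00000024598, chr18:58008623-58210487) was at 2.05, 2.83, 1.86 and 2.55 FPKM in WT and at 2.83, 3.55, 2.32 and 3.91 FPKM in KO. The groups overlapped, with KO3 below WT2 and WT4. The log2 difference of 0.42 (SE 0.23, 95% interval -0.12 to 0.95) did not pass the test (exact permutation p = 0.143), and the interval holds both no difference and a difference as large as that of Fbn1. Without WT1 and WT3 the difference was 0.20. The ratio of Fbn2 to Fbn1 within a library had a median of 0.318 in WT and 0.284 in KO. Its log2 difference of -0.30 was within the spread of the libraries (exact two-sided permutation test, n = 4 each, p = 0.286), and it was -0.12 without KO3.

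The microfibril-associated glycoproteins MAGP-1 and MAGP-2, encoded by Mfap2 and Mfap5, bind fibrillin along the microfibril. Mfap5 (ENSMUSG00000030116, chr6:122505845-122529290) was at 3.90, 4.88, 6.07 and 4.25 FPKM in WT and at 6.51, 8.12, 7.37 and 4.63 FPKM in KO. All KO libraries but KO4 were above every WT library. Its log2 difference of 0.46 (SE 0.22, 95% interval -0.05 to 0.97) did not pass the test with all libraries (exact permutation p = 0.0857). By limma it passed without KO4 (0.62) and without WT3 (0.58).

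Mfap2 (ENSMUSG00000060572, chr4:141010418-141015984) was the lowest of the 10 genes in both genotypes, at 0.819, 2.45, 2.33 and 2.02 FPKM in WT and 1.91, 1.29, 2.15 and 1.35 FPKM in KO. The lowest value was that of WT1, and the groups overlapped over most of their range. The log2 difference was -0.10 (SE 0.37, 95% interval -0.94 to 0.73, exact permutation p = 0.8), the widest interval after that of Eln. An estimated 23 to 58 fragments per library lay behind these values, against 172 to 1598 for Eln and 1593 to 3615 for Fbn1, and counting alone gives a coefficient of variation of 20.9% at the lowest. Leaving out WT1 moved the difference to -0.44, and leaving out both WT1 and WT3 moved it to -0.42.

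Fibulins link elastin to microfibrils and basement membranes. Fbln1 (ENSMUSG00000006369, chr15:85205949-85286535), a fibulin of elastic fibres and basement membranes, was at 11.5, 14.4, 13.8 and 15.0 FPKM in WT and at 18.2, 16.6, 20.4 and 14.0 FPKM in KO. Only KO4 fell within the range of WT. The log2 difference of 0.33 (SE 0.16, 95% interval -0.03 to 0.68) did not pass the test with all libraries (exact permutation p = 0.0857) and did so by limma without KO4 (0.42). Without WT1 and WT3 it was 0.22.

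Fbln2 (ENSMUSG00000064080, chr6:91212455-91272540), which is found in vessel walls and basement membranes, was at 4.67, 7.04, 9.56 and 7.67 FPKM in WT and at 6.07, 6.12, 7.43 and 6.52 FPKM in KO. Every KO value lay within the WT range, whose ends were WT1 and WT3. The log2 difference was -0.11 (SE 0.22, 95% interval -0.61 to 0.40, exact permutation p = 0.686). It was -0.30 without WT1, 0.04 without WT3 and -0.17 without both, and was called in none of these fits. Within libraries, the ratio of Fbln2 to Fbln1 had a median of 0.499 in WT and 0.366 in KO, a log2 difference of -0.44. It did not pass the test (exact two-sided permutation test, n = 4 each, p = 0.0571).

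Fibulin-5 and fibulin-4 bring tropoelastin and lysyl oxidases to the microfibril. Fbln5 (ENSMUSG00000021186, chr12:101746565-101819055) was at 13.7, 5.13, 7.42 and 11.5 FPKM in WT and at 9.72, 17.7, 15.9 and 9.54 FPKM in KO. The libraries of both genotypes fell into a higher and a lower pair, and WT1, low for most of the other genes, was the highest WT library here. The log2 difference of 0.53 (SE 0.34, 95% interval -0.26 to 1.31) did not pass the test (exact permutation p = 0.257). Without WT1 it was 0.73 and passed by limma, and without both WT1 and WT3 it was 0.72 and did not. Without WT2, the lowest library, it was 0.27.

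Efemp2 (ENSMUSG00000024909, chr19:5473954-5482517), the gene of fibulin-4, was at 8.22, 14.4, 12.3 and 12.3 FPKM in WT and at 11.5, 10.6, 11.7 and 12.4 FPKM in KO. Only WT1 was lower than all KO libraries. The mean was 11.8 ± 2.58 FPKM in WT and 11.6 ± 0.716 FPKM in KO (SD, n = 4 each). The log2 difference was -0.0039 (SE 0.18, 95% interval -0.42 to 0.41, exact permutation p = 1), and the interval holds differences as large as 0.41 in either direction. It was -0.17 without WT1 and -0.20 without both WT1 and WT3. The gene overlaps Mus81 on the opposite strand, and the strand setting used in counting is not given in the sources used here. The FPKM of Mus81 was 6.70 to 10.5 in WT and 6.63 to 9.69 in KO. Eln, Fbn1 and Fbn2 each overlap an annotated gene on the opposite strand too (Gm30003, Gm9913 and Gm26507), which were not analysed here.

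Emilin1 (ENSMUSG00000029163, chr5:30913402-30921277) encodes EMILIN-1, which lies between elastin and the microfibrils and restrains the processing of pro-TGF-β. It was at 7.02, 9.08, 5.22 and 8.87 FPKM in WT and at 10.2, 13.3, 15.3 and 9.03 FPKM in KO. The groups touched at 1 point, as KO4 was just under WT2. The mean rose 1.58-fold, from 7.55 ± 1.81 to 12.0 ± 2.85 FPKM (SD, n = 4 each), and the log2 difference was 0.66 (SE 0.24, 95% interval 0.12 to 1.20). The limma call was not matched by the exact two-sided permutation test, which gave p = 0.0571. The call was lost without WT3 (0.50), without KO2 (0.60), without KO3 (0.53) and without both WT1 and WT3 (0.38).

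**Figure D2:**
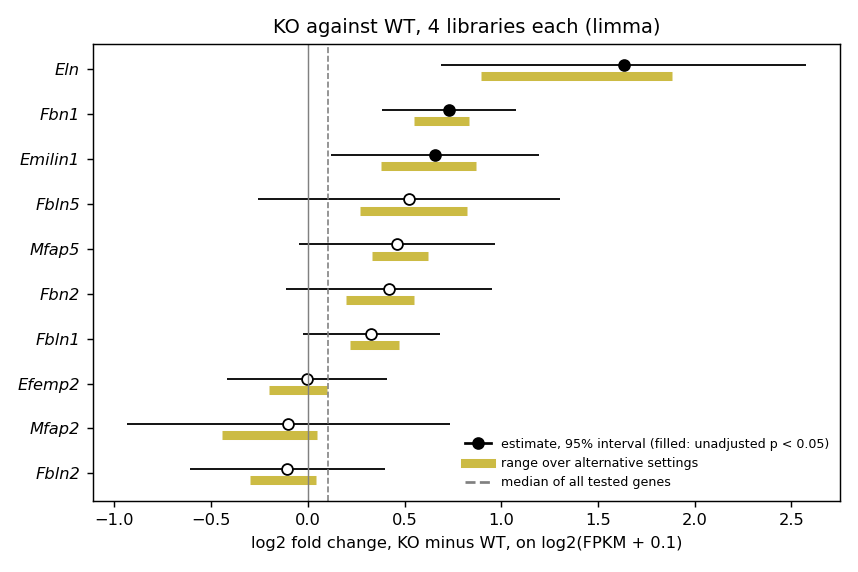
Log2 difference between KO and WT of the 10 genes, computed on FPKM plus 0.1, with the 95% interval of the limma fit as a black line, filled points for genes called, and a yellow bar for the range of the difference over the alternative settings. The dashed line marks the median of all tested genes (0.10), and the intervals of Eln, Fbn1 and Emilin1 lie above 0.

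The number of seed matches and the difference between genotypes can be set side by side for the 10 genes. The 5 genes with a match had a median log2 difference of 0.46, over a range from -0.10 (Mfap2) to 1.63 (Eln). The 5 genes without a match had a median of 0.33, over a range from -0.11 (Fbln2) to 0.66 (Emilin1). Of the 3 genes called higher, Eln and Fbn1 held matches and Emilin1 held none. Over all tested genes the median was 0.11 for the 2294 genes with a match and 0.10 for the 12538 genes without.

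The order of the mean levels was not the same in both genotypes. In WT the genes ran from Fbln1 (13.7 FPKM) over Efemp2, Fbln5, Emilin1, Fbln2, Fbn1, Mfap5, Eln and Fbn2 to Mfap2 (1.91 FPKM), and the ranges of all neighbours in this order overlapped, although Fbln1 was above Efemp2 within each of the 4 libraries. In KO the order was Fbln1 (17.3 FPKM), Fbln5, Emilin1, Eln, Fbn1, Efemp2, Mfap5, Fbln2, Fbn2 and Mfap2 (1.67 FPKM). Here Efemp2 was above Mfap5, Fbln2 above Fbn2 and Fbn2 above Mfap2 without overlap, and the other neighbours overlapped. Elastin moved from rank 8 in WT to rank 4 in KO, next to Fbn1 in level.

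Ratios within a library do not change when a library is scaled by a common factor. The ratio of Eln to Fbn1 was 0.267, 0.753, 0.465 and 0.728 in WT and 1.38, 0.823, 0.648 and 1.21 in KO. Its median went from 0.597 to 1.01, and only KO3 was within the range of WT. The log2 difference of 0.93 did not pass the test (exact two-sided permutation test, n = 4 each, p = 0.114, and 0.24 after Benjamini-Hochberg adjustment over the 6 ratios computed). Without WT1 the difference was 0.61. The smallest p that this design allows is 0.0286. None of the other 5 ratios passed either, among them Fbln5 to Eln (median 2.30 in WT and 1.31 in KO, exact permutation p = 0.2) and Emilin1 to Eln (1.77 and 1.06, exact permutation p = 0.143). The log2 difference of Fbln5 to Eln was -1.13 with all libraries and -0.57 without WT1. The ratio of Mfap5 to Mfap2 had a median of 2.35 in WT and 3.43 in KO (exact permutation p = 0.2). Without WT1, where it was 4.76, the difference reached the smallest exact permutation p possible, 0.0286, with a log2 difference of 0.85 against 0.57 with all libraries, and without KO2 it was 0.35.

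**Figure D3:**
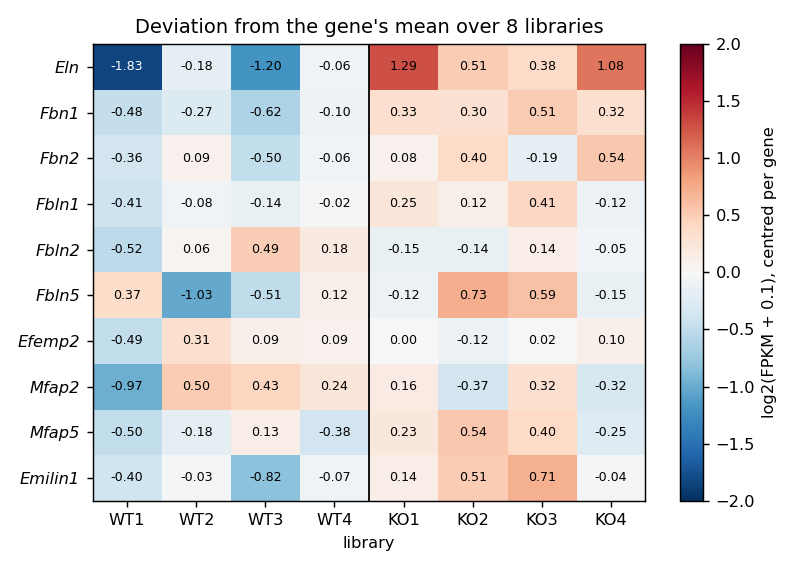
Log2 of FPKM plus 0.1 of the 10 genes in the 8 libraries, with the mean of each gene over the libraries subtracted. WT1 holds the lowest value of 6 genes and WT3 that of 3, and Fbln5 departs from the others with a high value in WT1 (0.37) and its lowest in WT2 (-1.03).

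The genes did not move as a block from library to library. Averaged over the 10 genes, the centred log2 level was -0.56, -0.08, -0.26 and -0.01 in WT1 to WT4 and 0.22, 0.25, 0.33 and 0.11 in KO1 to KO4. WT1 held the lowest value of 6 genes, WT3 of 3 and WT2 of 1, and no KO library held the lowest value of any. The highest values were spread more widely, with 3 in KO3, 2 each in KO2 and WT2, and 1 each in KO1, KO4 and WT3. Fbln1 followed the mean of the group most closely, with a root mean square distance of 0.120 on the log2 scale, and Eln was the farthest from it at 0.763. Among the other tested genes of at least 1 FPKM, the pattern most like the mean of the group over the 8 libraries was that of Eif1ad (0.0626), followed by Khsrp (0.0648), H2-K1 (0.0652), Relb (0.0692) and Srsf4 (0.0734). All 5 were closer to the group's mean than any of the 10 genes, which follows largely from their being picked for the smallest distance.

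Fibroblasts make most components of elastic fibres, and their markers were read beside the group. The summed FPKM of 7 fibroblast markers was 431 to 647 in WT and 808 to 1103 in KO, without overlap. The collagen I genes made up most of this difference, with Col1a1 (log2 difference 1.28) and Col1a2 (1.16) called higher, at 0.62 and 0.72 without WT1 and WT3. The other 5 markers were not called. Pi16, a gene of adventitial fibroblasts, was at 5.19, 2.89, 0.438 and 3.26 FPKM in WT and at 6.24, 3.92, 7.15 and 4.04 FPKM in KO (log2 difference 1.19, exact permutation p = 0.114). Pdgfra, the receptor that marks fibroblasts, was at 21.6 to 26.8 FPKM in WT and 23.4 to 25.5 FPKM in KO (log2 difference 0.02), and Dcn, the proteoglycan decorin, had a log2 difference of 0.22 (exact permutation p = 0.286). The differences of Lum and Dpt, both of fibroblast matrix, were 0.06 and 0.03. Summed markers of endothelium were at 54.8 to 63.7 in WT and 60.5 to 71.3 in KO, with 0 of 6 genes called by limma. Markers of bone cells summed to 37.6 to 379 in WT and 206 to 344 in KO. None of these 6 genes was called, and all 6 had a log2 difference above 0, with a median of 0.81. The part of the collagen I difference or of any cell type in the elastic fibre genes was not tested.

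The enzymes and partners of the fibre were taken as 7 lists of 55 genes in all, of which 49 were tested. Of these, 6 were called higher, 1 was called lower, and for 8 all KO libraries were above all WT libraries, against 4.61%, 0.507% and 3.02% of all tested genes. The lists were chosen with earlier results of these data known. Their comparison with all tested genes therefore describes the lists and does not test for an excess. The median log2 difference over the 49 genes was 0.30, against 0.10 over all tested genes, and 34 of them (69.4%) were above 0, close to the 66.5% of all tested genes. Without WT1 and WT3, 6 of the 7 genes were still called. In that fit 15 accessory genes were called, while 2430 of all 15055 tested genes were called too. A seed match was found in 19 of the 49 3′-UTRs, or 38.8%. The adjusted limma p (Benjamini-Hochberg) of the 7 genes called lay between 0.922 and 0.947.

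The lysyl oxidases cross-link tropoelastin and collagen, and 2 of the 5 genes were called higher. Lox, which encodes lysyl oxidase itself, was at 11.8, 9.24, 6.38 and 8.60 FPKM in WT and at 19.0, 25.4, 19.3 and 12.9 FPKM in KO. The lowest KO library was above the highest WT library, and the log2 difference was 1.07 (SE 0.25). Loxl2, a relative that also acts on basement membrane collagen, was at 2.40, 2.63, 0.999 and 3.17 FPKM in WT and at 3.95, 4.88, 3.77 and 3.88 FPKM in KO. It too was separated between the groups, with a log2 difference of 0.92 (SE 0.33). Loxl2 was at 0.58 without WT3 and 0.49 without both WT1 and WT3, still called, and lost its call without KO2 (0.83), while Lox was at 0.92 to 1.25 with any 1 library left out and called each time. Lox held 3 seed matches in its 3′-UTR and Loxl2 held 2. Loxl1, the family member required for the upkeep of elastic fibres in adult tissue, held no seed match. Its log2 difference was 0.34 (SE 0.18), and it was not called, nor were Loxl3 and Loxl4. Loxl3 had a log2 difference of 0.12 (SE 0.21) and overlapping groups. Loxl4, with 1 seed match, was separated, at 0.428 to 1.74 FPKM in WT and 1.94 to 2.21 FPKM in KO. Its log2 difference was 0.79 (SE 0.40, exact permutation p = 0.0286).

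Among the latent TGF-β binding proteins, which attach to fibrillin and hold latent TGF-β, none of 4 genes was called. Ltbp3 had the highest level, 18.4 to 41.2 FPKM in WT and 32.9 to 38.6 FPKM in KO, and a log2 difference of 0.22 (SE 0.24). The other fibulins and members of the EMILIN family had 6 tested genes, of which none was called. Efemp1, the gene of fibulin-3, was the highest of them, at 25.2 to 46.7 FPKM in WT and 26.5 to 35.3 FPKM in KO, with a log2 difference of -0.10 (SE 0.20).

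The 10 microfibril-associated and ADAMTS-like genes had a median log2 difference of -0.01 and held the 1 gene called lower. Mfap4, a microfibril-associated glycoprotein that binds elastin, was at 1.72, 1.88, 2.29 and 2.79 FPKM in WT and at 1.51, 1.10, 1.56 and 1.36 FPKM in KO. All KO libraries lay below all WT libraries, and the log2 difference was -0.60 (SE 0.23). The call was lost without WT3 (-0.57), WT4 (-0.48), KO2 (-0.50) or KO4 (-0.60), and without both WT1 and WT3 the difference was -0.70 and called. Adamts10, a secreted protein that binds fibrillin-1, had the highest level of the list and a log2 difference of -0.16 (SE 0.22). Adamtsl5 was not called but was separated the other way, at 2.53 to 5.47 FPKM in WT and 5.74 to 6.44 FPKM in KO. Its log2 difference was 0.46 (SE 0.25, exact permutation p = 0.0286).

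Of the 7 tested proteases that can cleave elastin or fibrillin, 3 were called higher. Mmp2, the gene of gelatinase A, was at 20.6, 21.0, 14.3 and 22.9 FPKM in WT and at 31.5, 32.1, 31.4 and 29.5 FPKM in KO. The groups were separated, with a log2 difference of 0.68 (SE 0.16), which was 0.50 and still called without WT1 and WT3. Mmp14, the membrane-bound protease that activates pro-MMP2, was also separated, at 25.6 to 32.5 FPKM in WT and 34.3 to 37.3 FPKM in KO (log2 difference 0.30, SE 0.13). Its call held without WT2 or WT4 and was lost without any other library, at 0.23 to 0.32, and without both WT1 and WT3, at 0.15. Ctsk, the cathepsin of bone-resorbing osteoclasts, had a log2 difference of 1.72 (SE 0.59) with overlapping groups, at 73.2, 18.5, 8.19 and 27.2 FPKM in WT and 55.8 to 123 FPKM in KO. It was 1.22 without WT3 and 1.78 without both WT1 and WT3, both called, and lost its call without KO3 (1.49). Elane, the neutrophil elastase, ranged from 0.0893 FPKM in WT3 to 200.2 FPKM in WT1 and from 58.4 to 144 FPKM in KO, and was not called (log2 difference 2.90, SE 1.78). Its extremes fell in the same libraries as those of the summed neutrophil and marrow markers.

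The integrins bind fibrillin, fibulin-5 and EMILIN-1 at the cell surface, and none of 10 genes was called. Itgb1, the highest of them, was at 50.7 to 62.7 FPKM in WT and 52.3 to 75.7 FPKM in KO (log2 difference 0.22, SE 0.15). Itga9 was separated, at 3.88 to 4.92 FPKM in WT and 5.17 to 5.33 FPKM in KO (log2 difference 0.32, SE 0.15, exact permutation p = 0.0286). Of the 7 tested ligands held by microfibrils, 1 was called. Bmp2 was at 2.45, 2.51, 1.64 and 2.93 FPKM in WT and at 3.62, 4.35, 3.72 and 3.50 FPKM in KO. It was separated between the groups, with a log2 difference of 0.67 (SE 0.21), which was 0.47 and still called without WT1 and WT3. Tgfb1, the highest of the ligands, was at 5.15 to 39.5 FPKM in WT and 20.7 to 32.7 FPKM in KO and was not called (log2 difference 0.87, SE 0.52).

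**Figure D4:**
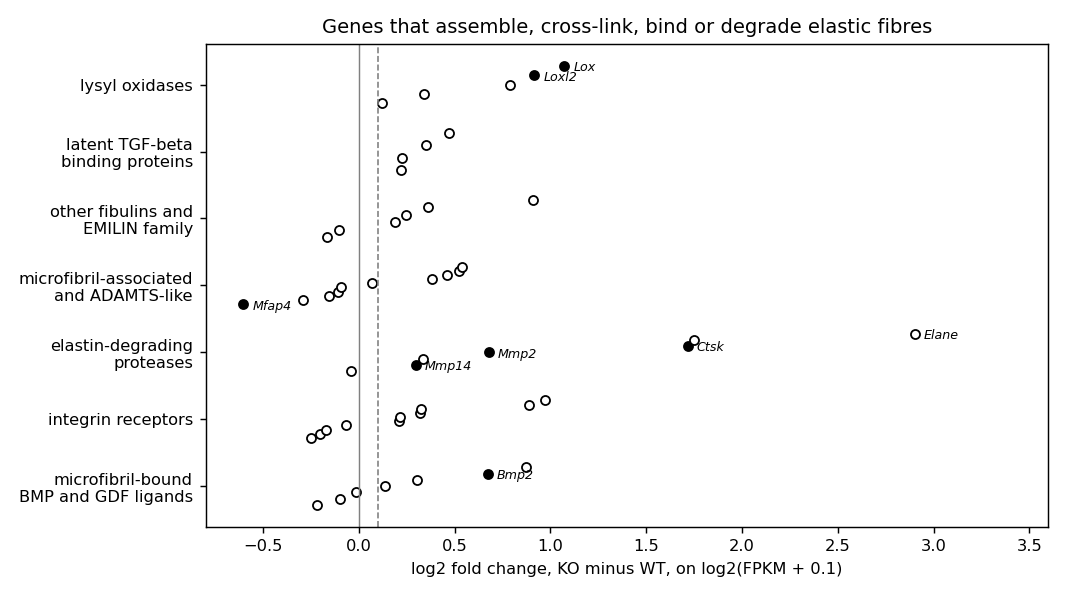
Log2 difference between KO and WT of the 49 tested genes in the 7 accessory lists, with 1 point per gene, filled points for genes with an unadjusted limma p under 0.05, and a dashed line at the median of all tested genes (0.10). The filled points are Lox, Loxl2, Mmp2, Mmp14, Ctsk and Bmp2 on the higher side and Mfap4 on the lower side.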

How the data were processed

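The authors depleted ribosomal RNA from total cochlear RNA and made strand-specific libraries, and the labels also name RNase R. Paired-end reads were mapped by the authors with Hisat2. The deposited values are FPKM per gene and library. The tool, annotation and strand setting behind them are not given in the sources used here. The labels name mm9, while the table's coordinates of all 10 genes were equal to those of GENCODE M21 on GRCm38, which were used. All 8 columns were used. Group and library number were read from the labels.

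The test was limma 3.58.1 in R 4.3.3 on log2 of FPKM plus 0.1, with genotype as the only factor and a mean-variance trend, for genes with a mean of at least 0.5 FPKM. A fold on this scale understates the change of low genes. The study's own test was run on counts, which were not used here. Its threshold, an unadjusted p under 0.05, was kept, and the p-values of all tested genes were adjusted together by the Benjamini-Hochberg method. Single genes and ratios were also compared by exact two-sided permutation of the libraries, for single genes as an addition made after seeing the data. The fit was tested on simulated data, with a change added to 200 genes and noise drawn independently for each gene and library. That test cannot show how the fit behaves where a whole library deviates, as WT1 and WT3 did. Fragments per gene were estimated from the steps between low FPKM values and the longest transcript, and cover counting error only.

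WT and KO libraries share numbers, but nothing says that these mark pairs, and libraries of the same number deviated from their group means with correlations of 0.42, -0.24, -0.17 and 0.21. No block was therefore used. Named genes are the 10 members, the called genes and the gene of highest mean FPKM in each accessory list, and the 5 genes nearest in pattern. Other genes of the lists named in the text and the 2 collagen I genes were chosen after their values were seen. The same holds for the markers Pdgfra, Dcn, Pi16, Lum, Dpt, Myh11, Acta2, Tagln, Cnn1, Rgs5, Des, Pvalb, Acta1, Coch, Otog and Tectb. Members and lists were chosen with earlier results of these data known. Alternatives were other pseudocounts, filters, scalings, weights, a block and left-out libraries, and the fit without WT1 and WT3, as well as left-out libraries for single accessory genes and markers, were added after seeing the data.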

Additional observations from a re-analysis of the deposited data

Results flagged for a closer look

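In 4 of the 46 groups of 4 libraries examined, 1 library lay far from the other 3, with a gap to its nearest neighbour that was above Dixon's 95% limit when divided by the group's whole range. Chance gives about 1 such group in 20. Fbn1 in KO was highest in KO3 (12.9 FPKM against 11.1 to 11.4), with a gap of 0.840 of the range, although the whole range is narrow. Loxl2 in KO was highest in KO2 (4.88 FPKM against 3.77 to 3.95), with a gap of 0.838. Elane in WT was highest in WT1 (200.2 FPKM against 0.0893 to 22.4), with a gap of 0.889. Tgfb1 in KO was lowest in KO4 (20.7 FPKM against 30.8 to 32.7), with a gap of 0.838.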

How the results depend on the processing

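Eln and Fbn1 were called higher under all 19 alternatives run, with log2 differences of 0.89 to 1.89 and 0.55 to 0.83, and Emilin1 under 15. The lowest value for Eln, 0.89, came from limma array weights, which gave WT1 a weight of 0.108. The number of the 10 genes called was 6 with array weights, 5 with libraries 1 to 3 of each group and 2 to 5 when 1 library was left out (2 without KO2 or KO3, 5 without KO4). With the replicate block, limma called 4 of the 10 genes, Mfap5 being added, and it changed no other call among them. That fit called 838 of all 14990 tested genes. Separated genes numbered 5 with libraries 1 to 3 and 2 to 5 with 1 library left out. Separation is easier to reach with fewer libraries, as the smallest exact two-sided permutation p is 0.1 with 3 per group and 0.0286 with 4. The share of all genes separated in these fits was not analysed, so the counts cannot be set against 3.02%. With libraries 1 to 3, 674 of 14956 tested genes were called, and without KO4, 870 of 14996. Over all genes, 767 were called, against 4133 with array weights, 3253 without WT1 and with median-ratio scaling, 2430 without WT1 and WT3, and 347 to 2922 with 1 library left out (2922 without WT1). The share of these calls that was higher in KO fell from 90.1% to 52.6% with median-ratio scaling and to 42.5% with quantile normalization. An adjusted limma p under 0.05 was reached by 446 genes with array weights and by at most 2 under any other alternative. Among the 10 genes the smallest adjusted limma p was 0.0483 with array weights, against 0.922 in the main fit. Accessory genes called numbered 20 with array weights, 15 without WT1 and with median-ratio scaling, 15 without WT1 and WT3, and 4 to 15 with 1 library left out. The 3 genes with a difference near 0 changed sign: Mfap2 was 0.048 with libraries 1 to 3, and with 1 library left out Efemp2 lay between -0.17 and 0.10, Fbln2 between -0.30 and 0.042 and Mfap2 between -0.44 and 0.049. The log2 ratio of Mfap5 to Mfap2 passed the exact permutation test only without WT1 (0.85), within a range of 0.35 to 0.85 with 1 library left out. The causes of these changes were not tested. Mfap2, with the fewest fragments, is the gene whose difference the depth limits most.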
